A study of Mus musculus with 2 samples.

Results

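The 10 genes described here are direct targets of the transcription factor p53: Cdkn1a, Mdm2, Ccng1, Zmat3, Trp53inp1, Phlda3, Bax, Bbc3, Pmaip1 and Eda2r. They were listed by symbol as known p53 targets, and all 10 were found among the 27998 genes of both count matrices. The study asked what loss of Trmt6, a subunit of the methyltransferase that places m1A at position 58 of tRNA, does to mouse haematopoietic stem cells (HSCs). It profiled sorted LSK cells (lineage-negative, Sca-1+, c-Kit+ haematopoietic stem and progenitor cells, HSPCs) from bone marrow of 3-month-old mice by droplet single-cell RNA-seq, with 1 library per genotype. The Trmt6 WT library is labelled Trmt6fl/fl, and the Trmt6 cKO library is labelled Trmt6fl/fl with MX1-cre. The labels give no Cre to the WT library, whereas the study's account of this experiment gives Mx1-Cre to both genotypes, with Trmt6+/+ controls and pIpC injection to induce the Cre, and its general methods name Trmt6fl/+ Mx1-Cre mice, all on C57BL/6. Mx1-Cre is switched on by interferon and is not restricted to HSCs, and how many mice went into each library is not given in the sources used here. With 1 library per genotype no difference below could be tested, and genotype, mouse and library cannot be told apart. All intervals are 95% exact intervals that cover counting error only.

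p53 is held low by the ubiquitin ligase Mdm2 and accumulates after DNA damage, ribosome assembly stress or oncogene activity. It then switches on genes that arrest the cell cycle, genes that start death through mitochondria, and genes that feed back on p53 itself. In HSCs p53 is known for its part in quiescence and in the loss of damaged stem cells.

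After doublets were removed, 8147 WT and 8480 cKO cells were kept, with a median of 4128 and 10015.5 unique molecular identifiers (UMIs, 1 per captured mRNA molecule) per cell, 2.43 times as many in cKO. Depth below means UMIs per cell, and the source of this gap was not tested. A level below is in CPM, the UMIs of a gene per 1000000 UMIs of the cells summed, and the log2 ratio compares cKO with WT. Levels are not compared between genes. The 2 libraries shared 24 cell barcodes. Trmt6 itself was measured at 63.2 CPM in WT cells and at 50.4 CPM in cKO cells, with a log2 ratio of -0.33 (-0.40 to -0.26). The counts come from the 3' end of the mRNA and do not show whether the floxed exon was lost, so this value does not check the labels. The libraries also differed in make-up: the summed level of 4 granulocyte-monocyte progenitor (GMP) markers was 6336 CPM in WT and 718 CPM in cKO cells, and that of 6 neutrophil markers was 5485 and 8.09 CPM.

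The promoters of these genes are shown because p53 acts through a short element in its targets, and the members did not move alike. RefSeq promoter windows of 300 bases (250 before and 50 after a start site, GRCm38.p6) were at hand for 7 of the 10 genes, in 10 windows. The search was for the 10-base half-site of the p53 response element, on both strands, with a pair of half-sites up to 13 bases apart counted as a full site. A half-site lay in 4 windows, of Cdkn1a, Mdm2, Ccng1 and Bax, against 8.36% of all 32851 windows, and 24 windows of all genes, 0.0731%, held a full site. That of Cdkn1a was one of these, with half-sites starting 73 and 51 bases before the start site. Cdkn1a has a further window, chr17:29093519-29093818 on the plus strand, which held none and is not printed. The Cdkn1a window with the match is chr17:29090729-29091028 on the plus strand, that of Mdm2 is chr10:117710709-117711008 on the minus strand, that of Ccng1 is chr11:40755237-40755536 on the minus strand and that of Bax is chr7:45466849-45467148 on the minus strand. Phlda3, at chr1:135765835-135766134 on the plus strand, is shown as a member with a high ratio and no match in its window. Half-sites are in capitals.
Cdkn1a: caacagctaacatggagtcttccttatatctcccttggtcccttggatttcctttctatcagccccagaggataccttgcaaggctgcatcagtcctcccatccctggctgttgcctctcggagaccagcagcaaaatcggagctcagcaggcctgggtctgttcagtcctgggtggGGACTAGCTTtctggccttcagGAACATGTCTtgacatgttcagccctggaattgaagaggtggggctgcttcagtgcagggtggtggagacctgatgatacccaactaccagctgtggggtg
Mdm2: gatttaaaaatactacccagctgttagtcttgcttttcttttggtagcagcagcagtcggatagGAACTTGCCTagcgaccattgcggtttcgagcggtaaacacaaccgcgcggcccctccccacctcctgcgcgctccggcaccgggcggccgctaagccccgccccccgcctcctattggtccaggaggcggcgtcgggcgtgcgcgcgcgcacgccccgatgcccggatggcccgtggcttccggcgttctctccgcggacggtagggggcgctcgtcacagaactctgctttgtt
Ccng1: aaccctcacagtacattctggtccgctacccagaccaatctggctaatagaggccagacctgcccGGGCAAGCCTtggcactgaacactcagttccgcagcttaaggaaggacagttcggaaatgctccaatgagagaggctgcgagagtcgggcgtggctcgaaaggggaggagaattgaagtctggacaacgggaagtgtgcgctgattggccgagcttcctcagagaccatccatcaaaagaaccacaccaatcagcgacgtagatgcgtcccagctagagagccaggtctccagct
Bax: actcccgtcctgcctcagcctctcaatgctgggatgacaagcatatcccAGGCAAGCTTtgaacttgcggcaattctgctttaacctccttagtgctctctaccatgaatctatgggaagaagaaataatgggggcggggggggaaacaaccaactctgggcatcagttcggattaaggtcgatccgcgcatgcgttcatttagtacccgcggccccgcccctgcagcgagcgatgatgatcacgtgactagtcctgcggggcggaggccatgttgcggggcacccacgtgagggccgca
Phlda3: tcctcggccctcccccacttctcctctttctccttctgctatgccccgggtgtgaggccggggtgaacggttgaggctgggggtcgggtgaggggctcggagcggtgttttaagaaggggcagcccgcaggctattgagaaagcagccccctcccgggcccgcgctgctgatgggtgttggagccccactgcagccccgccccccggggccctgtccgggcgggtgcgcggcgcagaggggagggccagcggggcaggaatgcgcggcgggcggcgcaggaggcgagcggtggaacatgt
In Mdm2, Ccng1 and Bax the half-site started 186, 185 and 201 bases before the start site. A match is a description of letters and not a bound site, and a window without one says nothing of sites elsewhere in the gene.

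Over all kept cells the members split into 3 sets. Zmat3, Phlda3, Bbc3, Ccng1 and Bax were all more than 2-fold higher in the cKO library, Cdkn1a and Mdm2 lay slightly higher, and Trp53inp1 lay slightly lower. Pmaip1 was lower and Eda2r higher, both at levels under 5 CPM in either library. Of the 8 members that reached 5 CPM in either library, 5 were higher by 2-fold or more and 0 were lower. Among all 9144 genes at that level, 2.9% were higher by 2-fold or more and 5.17% were lower. Zmat3 reached 5 CPM only in the cKO library, where it is high, so it could not have been counted among the 8 without differing. The counts and the median are therefore a description. The median log2 ratio was 1.19 over the 8 members and -0.07 over all 9144 genes.

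**Figure D1:**
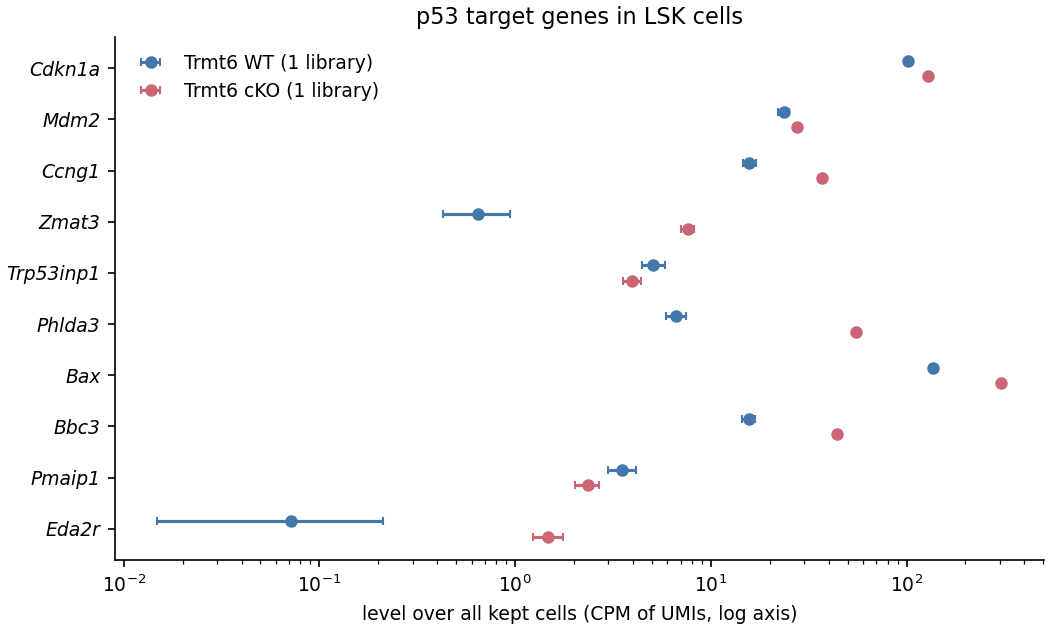
Level of each p53 target over all kept cells (CPM of UMIs, logarithmic axis) in the WT and the cKO library, 1 library each; bars are exact 95% Poisson intervals. The points of Zmat3, Phlda3 and Eda2r stand farthest apart, those of Cdkn1a (102 and 128 CPM) and Mdm2 (23.5 and 27.6 CPM) lie close together, and Trp53inp1 and Pmaip1 are the genes with cKO on the left.

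Among the genes of arrest and feedback, Cdkn1a (chr17:29090976-29100727, GRCm38, plus strand) encodes p21, the inhibitor of cyclin-dependent kinases that holds cells before S phase. It gave 4233 UMIs in WT and 11141 in cKO cells, or 102 and 128 CPM, a log2 ratio of 0.33 (0.28 to 0.39). In cells thinned to 2000 UMIs, 17.3% of WT and 16.3% of cKO cells held a Cdkn1a UMI, against 31.4% and 43.5% without thinning. The thinned share differed by -1.02 points (-2.18 to 0.13), which does not differ from 0 beyond counting error. The higher cKO level was thus not seen in the thinned share, and no order is read from them. The highest WT cell held 9 Cdkn1a UMIs and the highest cKO cell 37 before thinning, 7 and 10 at 2000 UMIs per cell, and 6 and 5 at 1000 UMIs. Without thinning, the 1% of cells highest for the gene held 11.0% of its UMIs in WT and 13.3% in cKO. Depth moved with the result too. In cells with 4000 to 8000 UMIs, 3104 WT and 2206 cKO cells with medians of 5371.5 and 6510 UMIs, depth was closer but not equal. The window lies largely above the median of all kept WT cells (4128) and below that of all kept cKO cells (10015.5). There Cdkn1a was lower in cKO (72.0 CPM) than in WT (115 CPM), with a log2 ratio of -0.68 (-0.79 to -0.57). Between 8000 and 12000 UMIs the levels were 92.0 and 93.1 CPM, with a ratio of 0.02 (-0.10 to 0.14), and between 2000 and 4000 UMIs they were 114 and 145 CPM. With each cell scaled before averaging, the ratio over all kept cells was 0.06. No single direction for Cdkn1a therefore held across depths.

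Mdm2 (chr10:117688875-117710758, minus strand), the ligase that degrades p53 and is itself switched on by it, gave 980 UMIs in WT and 2396 in cKO cells. These are 23.5 and 27.6 CPM, a 1.17-fold difference (log2 0.23, 0.12 to 0.34). In the 4000 to 8000 UMI window the ratio was again 0.23 (0.02 to 0.44). Ccng1 (chr11:40748552-40755311, minus strand) encodes cyclin G1, which recruits a phosphatase to Mdm2. It gave 655 UMIs in WT and 3206 in cKO cells, or 15.7 and 36.9 CPM, a log2 ratio of 1.23 (1.11 to 1.35). In thinned cells its share was 3.35% in WT and 6.63% in cKO. Ccng1 thus differed more between the libraries than Mdm2 did, and the same held in the 4000 to 8000 UMI window, where its ratio was 1.15 (0.92 to 1.39).

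The next group regulates p53 output and signalling. Zmat3 (chr3:32334792-32366014, minus strand), a zinc finger RNA-binding protein that controls splicing and mRNA stability, was nearly silent in WT with 27 UMIs in 26 cells and gave 662 UMIs in 591 cKO cells. These are 0.65 and 7.61 CPM, an 11.5-fold difference (log2 3.53, 3.00 to 4.17). In thinned cells 0.164% of WT (0.087% to 0.280%) and 1.21% of cKO cells (0.983% to 1.46%) held a UMI. Phlda3 (chr1:135766119-135769136, plus strand), a PH-domain protein that competes with Akt for membrane lipid, went from 276 UMIs in WT to 4814 in cKO cells. That is 6.63 and 55.4 CPM, a log2 ratio of 3.06 (2.89 to 3.24), or 8.34-fold. Its thinned share was 1.41% in WT and 8.37% in cKO. The size of the Phlda3 ratio moved with depth: it was 1.66 (1.39 to 1.93) between 4000 and 8000 UMIs and 3.26 (2.79 to 3.80) between 8000 and 12000 UMIs. Zmat3 was 3.38 (2.41 to 4.73) and 3.39 (2.18 to 5.44) in the same windows. Trp53inp1 (chr4:11156431-11174379, plus strand), a protein of the p53 stress response and autophagy, gave 212 UMIs in WT and 344 in cKO cells, or 5.09 and 3.96 CPM. Its log2 ratio was -0.36 (-0.61 to -0.11), whereas it was 0.37 (-0.07 to 0.83) in the 4000 to 8000 UMI window, so its direction also turned with depth.

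Among the genes of cell death, Bax (chr7:45461697-45466898, minus strand), the effector that opens the outer mitochondrial membrane, gave 5666 UMIs in WT and 26268 in cKO cells. These are 136 and 302 CPM, a 2.22-fold difference (log2 1.15, 1.11 to 1.19). A Bax UMI was found in 23.1% of thinned WT cells (22.1% to 24.0%) and 40.6% of thinned cKO cells (39.6% to 41.7%). Bbc3 (chr7:16308393-16318205, plus strand) encodes PUMA, a BH3-only protein that releases Bax from its inhibitors. It gave 650 and 3826 UMIs, or 15.6 and 44.0 CPM, a log2 ratio of 1.49 (1.38 to 1.62), and its thinned share was 3.85% in WT and 7.86% in cKO. At 4000 to 8000 UMIs the ratio was 0.81 (0.73 to 0.89) for Bax and 1.32 (1.10 to 1.53) for Bbc3, so both kept their direction in that window. Pmaip1 (chr18:66458533-66465565, plus strand) encodes NOXA, a second BH3-only protein. It gave 147 UMIs in WT and 204 in cKO cells, or 3.53 and 2.35 CPM, with a log2 ratio of -0.59 (-0.90 to -0.27). This value moved with the cells counted: it was -1.87 (-3.16 to -0.87) between 4000 and 8000 UMIs, -0.06 with the gates mixed as in the WT library, and -0.09 without the 1% of cells highest for the gene. Eda2r (chrX:97333840-97377216, minus strand), a receptor of the tumour necrosis factor family, had 3 UMIs in WT and 128 in cKO cells, a log2 ratio of 4.14 (2.77 to 6.65). In low-cycle cells, with 1 and 12 UMIs, the ratio was 2.29 (0.06 to 8.23). Its level of 1.47 CPM in cKO cells is low, and only 0.239% of thinned cKO cells held a UMI.

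**Figure D2:**
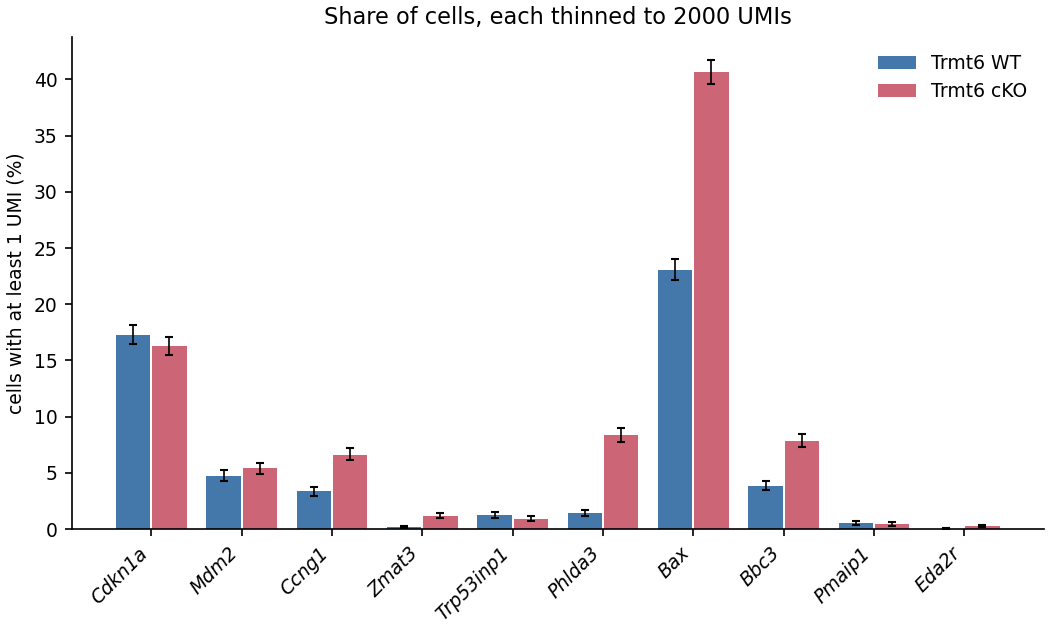
Share of cells with at least 1 UMI of each p53 target after each cell was thinned to 2000 UMIs (percent, axis from 0), in 7942 WT and 8375 cKO cells; bars are exact 95% Clopper-Pearson intervals. The WT and cKO bars are 23.1% and 40.6% for Bax and 1.41% and 8.37% for Phlda3, while the 2 bars of Cdkn1a are 17.3% and 16.3%.

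More cKO cells carried several members at once. At 2000 UMIs per cell, a WT cell held a UMI of 0.557 of the 10 genes on average (SD 0.684 over cells) and a cKO cell of 0.880 (SD 0.939). None of the 10 was seen in 54.4% of WT and 41.2% of cKO cells, and 2 or more were seen in 9.17% (8.54% to 9.82%) and 21.5% (20.7% to 22.4%). A set of 4 or more was found in 3 of 7942 WT cells and in 123 of 8375 cKO cells. The mean is the sum of the single-gene shares, of which Bax differed most, by 17.6 points. Whether members went together in the same cells beyond these shares was not tested. In HSC-gated cells, defined in the paragraph on HSCs, the mean was 0.463 in WT and 0.599 in cKO, so the gap there was narrower than over all cells.

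**Figure D3:**
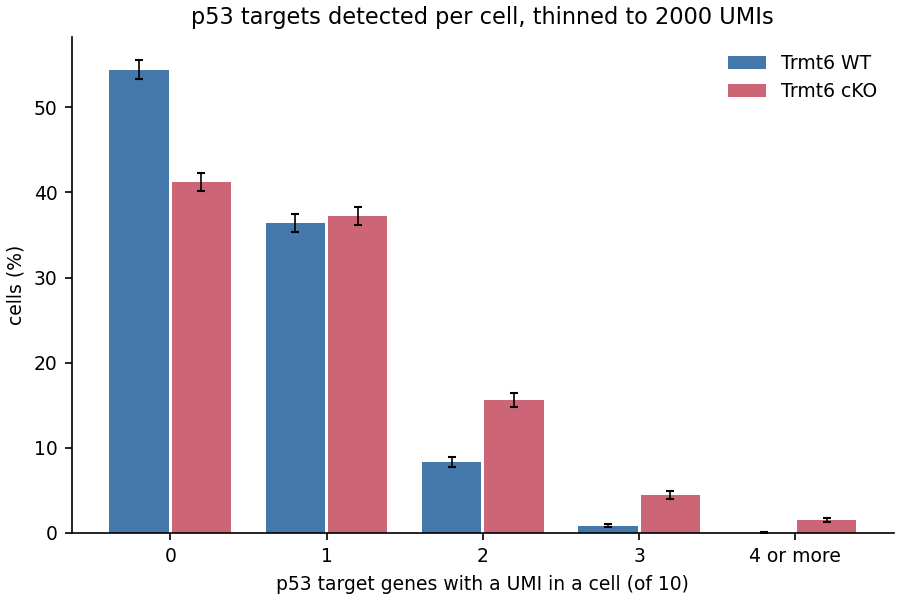
Number of the 10 p53 targets with a UMI in a cell thinned to 2000 UMIs (horizontal axis) and the share of cells (percent, from 0) in each library; bars are exact 95% Clopper-Pearson intervals. The cKO library has fewer cells with 0 targets (41.2% against 54.4%) and more with 2, 3 and 4 or more.

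In HSC-gated cells the pattern of the members was in part different, and counts were small. The gate held cells with at least 3 of 10 stem cell markers, among them Procr, Hlf, Mecom and Hoxb5, and with no other gate passed: 147 WT cells with 473887 UMIs and 284 cKO cells with 1954616 UMIs. The label was checked with Sult1a1, Tgm2, Mmrn1 and Vwf, which the gate did not use, and all 4 were higher in HSC-gated cells than over all cells of both libraries. Vwf rested on only 3 UMIs in the WT gate, 6.33 CPM against 2.98 CPM over all WT cells. The 10 gate markers summed to 1547 CPM in WT and 1100 CPM in cKO HSC-gated cells. Cdkn1a had 34 UMIs in WT and 89 in cKO HSC-gated cells, or 71.7 (49.7 to 100.3) and 45.5 (36.6 to 56.0) CPM. The log2 ratio was -0.67 (-1.24 to -0.04), opposite to that over all cells. At 2 markers or more, 715 WT and 1132 cKO cells, Cdkn1a was 75.7 and 68.9 CPM, with a ratio of -0.14 (-0.37 to 0.11) that does not differ from 0 beyond counting error. At 4 markers, in 26 WT and 65 cKO cells, the ratio was -1.16. When the gate was set on all UMIs in place of thinned cells the Cdkn1a ratio was 0.60. That gate was not set at equal depth. It took 382 WT and 2566 cKO cells, 4.69% and 30.3% of kept cells, against 1.80% and 3.35% at 3 markers in thinned cells. The direction of Cdkn1a in HSCs thus depends on whether cells are thinned before gating, and its size on the number of markers.

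Bax was higher in cKO HSC-gated cells under each gate tried. It had 55 UMIs in WT and 420 in cKO cells at 3 markers, or 116 and 215 CPM, a log2 ratio of 0.88 (0.48 to 1.32), and 1.004 (0.83 to 1.18) at 2 markers. Phlda3 rested on 3 WT and 60 cKO UMIs at 3 markers, a ratio of 2.07 (0.66 to 4.60), and on 8 and 329 UMIs at 2 markers, a ratio of 3.37 (2.46 to 4.68). Ccng1 gave 0.86 (-0.27 to 2.47) from 6 and 48 UMIs at 3 markers and 1.10 (0.61 to 1.66) from 36 and 293 UMIs at 2 markers. The wider gate thus narrowed the intervals of these 3 genes. At 4 markers the ratio was 0.12 for Ccng1 and 1.66 for Bax, so the size of both depended on the gate.

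Bbc3 was 25.3 and 39.9 CPM in the HSC gate, from 12 and 78 UMIs, a ratio of 0.61 (-0.23 to 1.67), and 0.54 (0.14 to 0.99) with 2 markers. Its ratio was smaller in HSC-gated cells than over all cells at the wider gate, where the intervals do not overlap. Mdm2 gave 0.43 (-0.49 to 1.63) at 3 markers and -0.21 (-0.59 to 0.19) at 2. Trp53inp1 had 2 and 9 UMIs at 3 markers, a ratio of -0.12 (-2.15 to 3.38), and -1.01 (-1.86 to -0.08) at 2 markers. Zmat3 had 0 WT and 12 cKO UMIs at 3 markers, and since 3 UMIs, the floor in this WT pool, would be 6.33 CPM and the cKO level was 6.14 CPM, no fold is given. At 2 markers it had 1 and 43 UMIs, a ratio of 2.95 (0.96 to 8.85). Pmaip1 had 0 and 1 UMIs and Eda2r 0 and 3 at 3 markers, which at this depth allows no comparison.

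Of the 8 members at 5 CPM or more over all cells, 2 were higher by 2-fold or more in HSC-gated cells and 0 were lower, where 5.77% of all 9144 genes were higher and 10.5% lower. The 2 were Phlda3 and Zmat3, but Zmat3 enters only through the 0.5 UMIs added to each count, since its WT count was 0. Without it the count is 1. At 2 markers 4 members were higher and 1, Trp53inp1, was lower, against 2.46% and 7.24% of all genes. The 4 were Phlda3, Ccng1, Bax and Zmat3, the last on 1 WT UMI and among the 8 only through its cKO level. Trp53inp1 in turn was among the 8 only through its WT level, where it is higher (5.09 against 3.96 CPM over all kept cells). RNA of other cell types was also present in the gate. In WT HSC-gated cells the neutrophil genes S100a8 and Ngp stood at 5.44% and 10.2% of their level over all WT cells, and Mpo, a GMP gene, at 11.3%. The 4 GMP markers summed to 1317 CPM in WT HSC-gated cells, against 6336 CPM over all WT cells, and to 561 CPM in cKO, against 718 CPM. Their part in the member levels was not tested.

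**Figure D4:**
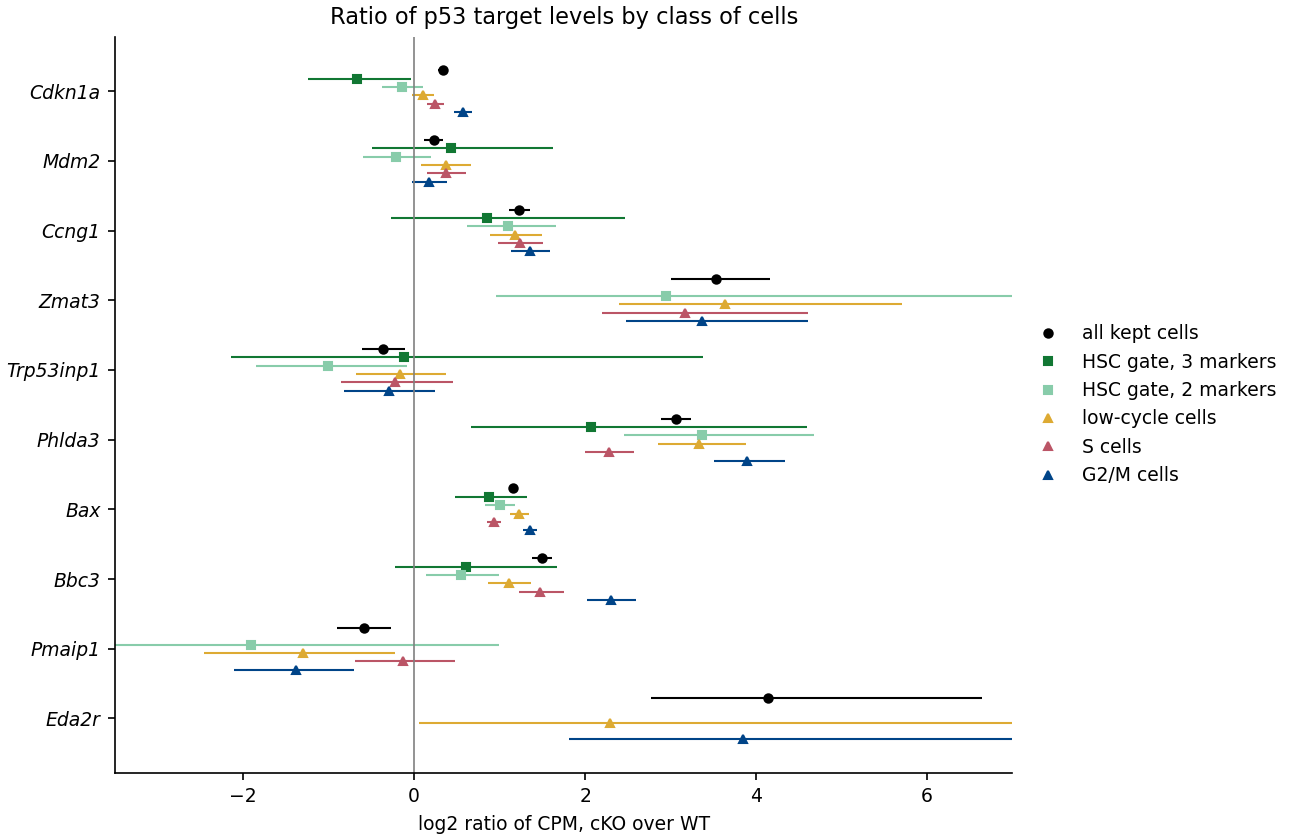
Log2 ratio of the level (CPM), cKO over WT, of each p53 target in all kept cells, HSC-gated cells at 3 and at 2 markers, and 3 classes of cell cycle gene detection; lines are exact 95% conditional binomial intervals, running off the axis where they exceed it, and a class with 0 UMIs in a library is left out. Bax, Phlda3 and Ccng1 points lie right of 0 in all 6 classes, and Cdkn1a crosses 0, from -0.67 in the 3-marker HSC gate to 0.58 in G2/M cells.

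The members also differed by cell cycle class. Cells were called G2/M when at least 5 of 20 G2/M genes were seen, S when at least 5 of 20 S genes were, and low-cycle when at most 1 of each list was, which gave 1824 low-cycle, 1666 S and 1969 G2/M cells in WT and 1319, 2282 and 1621 in cKO. In WT, Cdkn1a stood at 128 CPM in low-cycle, 116 in S and 77.3 in G2/M cells, and in cKO at 137, 137 and 115. Its ratio was 0.10 (-0.03 to 0.23) in low-cycle, 0.25 (0.15 to 0.34) in S and 0.58 (0.47 to 0.68) in G2/M cells. The Bbc3 ratios rose in the same order, at 1.11 (0.87 to 1.36), 1.48 (1.22 to 1.75) and 2.30 (2.02 to 2.60). Its WT levels were 29.9, 12.9 and 8.15 CPM and its cKO levels 64.6, 36.1 and 40.2 CPM, so the cKO levels did not follow those of Cdkn1a. For both genes the G2/M interval lay above those of the other classes. Depth moved with the classes too, with a median of 2959 UMIs in WT and 6937 in cKO low-cycle cells, 5509 and 10895 in S cells, and 6235 and 11933 in G2/M cells. Its part in this order was not tested, and the Cdkn1a ratio over all kept cells turned to -0.68 between 4000 and 8000 UMIs.

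Not all members followed that order. Phlda3 had ratios of 3.33 (2.86 to 3.88), 2.28 (1.999 to 2.58) and 3.90 (3.51 to 4.34), lowest in S cells. Its WT level was 10.4 CPM in S against 6.08 in low-cycle and 3.69 in G2/M cells, while cKO levels were 50.4 to 61.9 CPM. Bax ratios were 1.23, 0.93 and 1.35 in the 3 classes, also lowest in S cells. Ccng1 ratios were 1.18, 1.24 and 1.36, with overlapping intervals. Pmaip1 was lower in cKO low-cycle cells, at -1.30 (-2.46 to -0.22), and G2/M cells, at -1.38 (-2.11 to -0.71), and was -0.13 (-0.69 to 0.48) in S cells. Mdm2 stayed between 0.18 and 0.37 in all 3 classes.

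By lineage, Phlda3 and Bax were higher in cKO cells in each of the 7 looser gates compared, whereas the direction of Cdkn1a differed between gates. The strict gates left few cKO cells (42 LMPP, 25 GMP, 7 megakaryocyte and 0 neutrophil), so lineages are compared with looser gates (2 markers, or a lower sum of marker UMIs), a choice made after the data had been seen. They gave 7 gates with at least 50 cells in each library: HSC (583 WT, 1035 cKO), lymphoid-primed progenitors (LMPP; 674, 147), GMP (1008, 83), megakaryocyte (232, 54), erythroid (104, 63), T/NK (153, 203) and monocyte/dendritic (422, 298). Gate names follow markers and not sorted populations. The T/NK gate in particular was not shown to hold T or NK cells. Cd3e had 0 UMIs even in its strict form, and Nkg7, one of its markers, stood at 563 CPM over all WT and 272 CPM over all cKO cells. Apart from Cd3e, the markers found were all higher in the strict cKO gate than over all cKO cells. Klrd1 was 507 against 1.74 CPM and Cd7 690 against 4.24 CPM. The gate was set on these markers, so they do not check it. Its cKO cells went from 26 with a median of 3348 UMIs to 203 with a median of 9747 when it was loosened.

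Bax ranged from 120 CPM (HSC) to 188 CPM (erythroid) over the WT gates and from 252 CPM (HSC) to 320 CPM (megakaryocyte) over the cKO gates, and its cKO interval lay above the WT interval in 7 of 7. Phlda3 did so in 7 of 7 as well. In WT it was 17.8 CPM (13.3 to 23.4) in LMPP-gated against 2.01 CPM (0.55 to 5.15) in HSC-gated cells, whereas in cKO it lay between 34.7 and 53.3 CPM in every gate. In WT the LMPP interval lay above those of the other gates except T/NK, at 8.68 CPM (2.82 to 20.3), and in cKO the LMPP level of 40.8 CPM (30.9 to 52.9) lay within the range of the other gates. Zmat3 was above in 5 gates, with WT levels from 0 to 3.42 CPM and cKO levels from 4.69 to 10.7 CPM.

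Ccng1 was above in 4 of 7 gates. The exceptions were LMPP, with 14.7 CPM in WT and 17.9 CPM in cKO, erythroid, with 17.1 and 35.7 CPM, and monocyte/dendritic cells, with 18.6 and 22.3 CPM. Its cKO levels in GMP-gated (51.4 CPM, 40.2 to 64.8), T/NK (50.7 CPM, 41.0 to 61.9) and megakaryocyte cells (46.2 CPM, 30.2 to 67.8) did not differ beyond counting error, nor did those in monocyte/dendritic (17.1 to 28.6) and LMPP-gated cells (11.6 to 26.4). Bbc3 was above in 3 gates, and the interval of its ratio lay above 0 in 2 more, HSC (0.57, 0.12 to 1.07) and megakaryocyte (1.12, 0.10 to 2.16). In GMP-gated cells it had 9.36 CPM (7.49 to 11.5) in WT and 44.3 CPM (34.0 to 56.8) in cKO. In HSC-gated cells Bbc3 was 22.6 CPM in WT, more than in the WT GMP gate. The separate intervals of Mdm2, Trp53inp1, Pmaip1 and Eda2r overlapped in all 7 gates. The interval of the ratio lay on one side of 0 for Eda2r in GMP-gated cells, at 3.95 (0.68 to 10.03) from 1 and 3 UMIs, and for Pmaip1 in monocyte/dendritic cells, at -1.34 (-2.56 to -0.28). Mdm2 varied little, with 21.2 to 36.4 CPM over the WT gates and 22.7 to 30.2 CPM over the cKO gates. Pmaip1 was highest in WT monocyte/dendritic cells at 10.4 CPM (6.62 to 15.7), where cKO had 4.02 CPM (2.01 to 7.20).

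The level of Cdkn1a varied between lineages. In WT it was highest in LMPP-gated cells at 172 CPM (158 to 188), followed by T/NK at 127 CPM (99.3 to 159) and monocyte/dendritic at 116 CPM (102 to 131). Each of these overlaps the next in that order. Among these 7 gates the lowest levels were those in megakaryocyte-gated and erythroid-gated cells, at 52.8 and 51.2 CPM. In cKO it was 171 CPM (138 to 209) in megakaryocyte, 167 CPM (146 to 190) in GMP and 152 CPM (132 to 174) in LMPP cells, which did not differ beyond counting error, and 70.0 CPM (64.5 to 75.8) in HSC-gated cells. By level it was higher in cKO in 4 of 7 gates, and in 2 of these the separate intervals of the libraries did not overlap: GMP, 167 against 79.5 CPM, with a ratio of 1.07 (0.85 to 1.29), and megakaryocyte, 171 against 52.8 CPM, with 1.69 (1.21 to 2.19). In erythroid cells it was 83.0 against 51.2 CPM, a ratio of 0.68 (0.05 to 1.37), and in T/NK-gated cells 145 against 127 CPM, a ratio of 0.18 (-0.19 to 0.58). It was lower in cKO monocyte/dendritic cells, at 83.7 against 116 CPM, with intervals that did not overlap, and the values in HSC-gated and LMPP-gated cells overlapped. Median depth in the looser GMP gate was 8632 and 16494 and in the megakaryocyte gate 4360.5 and 10365 UMIs per cell in WT and cKO, and its part in these ratios was not tested. The monocyte/dendritic gate held unlike cells in the libraries. At its strict setting Csf1r was 58.6 CPM in WT and 1.34 CPM in cKO and Irf8 990 and 256 CPM, while Cd74 was 2917 and 6244 CPM, and Jchain, expressed in plasma cells and plasmacytoid dendritic cells, stood at 7403 CPM in cKO. WT neutrophil-gated cells, which have no cKO counterpart, held 3 Cdkn1a UMIs in 55 cells, or 7.72 CPM, and Bax stood at 46.3 CPM there. With GMP-gated and neutrophil-gated cells left out of both libraries, the ratios over all other cells were 0.21 for Cdkn1a, 1.17 for Bax, 1.34 for Bbc3 and 2.92 for Phlda3.

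**Figure D5:**
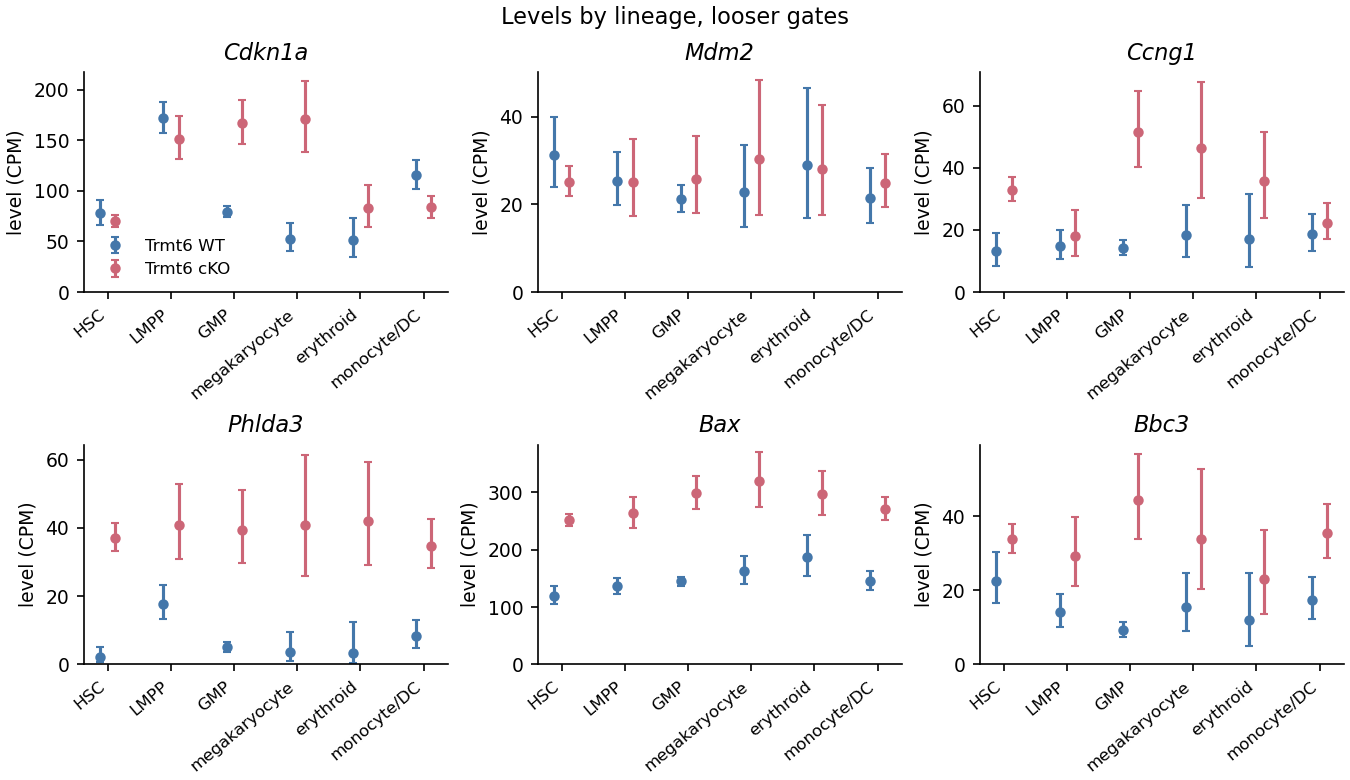
Levels (CPM, axes from 0 and different for each gene) of 6 p53 targets in 6 of the 7 looser lineage gates, WT and cKO, 1 library each; bars are exact 95% Poisson intervals. Bax and Phlda3 are higher in cKO in each gate, Mdm2 overlaps in all, and Cdkn1a is higher in cKO GMP-gated and megakaryocyte-gated cells but not in HSC-gated or LMPP-gated cells.

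Over 11 pools of 50 or more cells (7 of them WT) at the strict gates, the genes whose log2 levels went most like Cdkn1a, among 7150 genes, were D16Ertd472e (Pearson r = 0.98), Srsf10 (0.95), Trmo (0.95), Cd244 (0.94) and Sh2d5 (0.93). The pools share the 2 libraries and their depth, so this is a description only.

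The median of the other pathway genes lay near that of all genes, with some genes far from it on either side. Of 42 other genes, 35 were at 5 CPM or more, and 4 were higher in cKO by 2-fold or more, 3 were lower and 28 lay between, with a median log2 ratio of -0.04. These 4 and 3 of 35 stand beside 2.9% of all 9144 genes higher and 5.17% lower. In HSC-gated cells 3 of the 35 were higher and 5 lower, where 5.77% and 10.5% of all genes were, and most of these rest on few UMIs. The 3 higher genes were Pidd1, with 0 WT UMIs, and Sesn2 and Gtse1, with 1 each. Of the 5 lower, Btg2 stood at -2.44 (-2.95 to -1.94) from 79 and 60 UMIs and Ier3 at -1.46 (-1.96 to -0.94) from 56 and 84. Perp counted as lower on 2 UMIs in each library. Gadd45a stood at -1.01 (-2.12 to 0.28) from 10 and 21 UMIs, and at -1.24 (-1.77 to -0.69) at 2 markers. The last, Atm, is given below. Over all kept cells the 4 were Sesn2, a stress-induced regulator upstream of mTORC1, at 2.28 and 24.4 CPM, Perp, a desmosomal membrane protein, at 1.63 and 5.12 CPM, Trp53i11 at 7.85 and 18.9 CPM, and Aen, an exonuclease of apoptosis, at 35.5 and 81.6 CPM. Sesn2 and Perp reached 5 CPM only in cKO, where they are high. Sesn2 had the highest ratio of the list, 3.41 (3.12 to 3.73). Sesn2 and Bbc3 are also known to respond to the integrated stress response, as background.

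The 3 lower genes were Btg2, an antiproliferative early-response gene, at 120 and 23.6 CPM, Ier3, another early-response gene, at 93.4 and 27.9 CPM, and Xpc, a sensor of nucleotide excision repair, at 79.1 and 37.0 CPM. Their log2 ratios were -2.34, -1.74 and -1.10. None of the 9 expressed genes among p53 and its regulators passed 2-fold in either direction over all kept cells, and in HSC-gated cells the kinase Atm stood at -1.09 from 7 and 14 UMIs, with an interval of -2.45 to 0.51 that spans 0. Over all kept cells Trp53 itself was measured at 170 and 274 CPM, with a ratio of 0.69 (0.65 to 0.73), and Mdm4, its second inhibitor, at 21.9 and 24.3 CPM, a ratio of 0.15 (0.04 to 0.27).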

How the data were processed

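Droplet 3' single-cell libraries of sorted LSK cells, 1 per genotype, were analysed. The authors deposited filtered matrices of UMI counts per gene and cell. Per the labels' processing notes these come from Cell Ranger 6.0.0 and mm10. The labels name kit v2 and the study's methods v3. The deposited counts are raw and were used without rescaling. Cells had at least 200 genes, at most 4000 (WT) or 4500 (cKO) genes and at most 10% (WT) or 5% (cKO) mitochondrial UMIs, as in the study's methods, and under 5% haemoglobin UMIs. Of 8869 WT and 9260 cKO barcodes, with 47991455 and 98323201 UMIs, 8763 and 9151 passed. A neighbour score against simulated doublets (scikit-learn 1.9.0, 50 neighbours) marked 616 and 671 cells, which were removed.

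UMIs of kept cells were summed per library or gate. Levels carry exact Poisson intervals, ratios exact conditional binomial intervals with 0.5 prior counts in the point value, and shares Clopper-Pearson intervals after thinning to 2000 UMIs (numpy 2.4.6, scipy 1.17.1, pandas 2.3.3), which left out 205 WT and 105 cKO cells. Interval coverage was tested on simulated data. Gates used marker detection in thinned cells, and a cell passing several gates was set aside. Of the markers, Cavin2 and Trbc1 were not found under those symbols. edgeR 4.0.16 served for an alternative scaling only, by TMM. Coordinates are from GENCODE M21 on GRCm38, and promoters from RefSeq.

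All 10 members are named. Other pathway genes at 5 CPM or more are named if past 2-fold over all kept cells or in the HSC gate as first defined. Those past 2-fold only under other settings were not all followed. Tigar is one, with a log2 ratio of 1.76 (0.32 to 4.30) from 3 and 44 UMIs in the HSC gate at 2 markers. Trp53, Mdm4 and Sesn2 are also named, with the 5 genes most correlated with Cdkn1a among those at 20 CPM or more in a pool. Members, lists and gates were chosen with earlier results of these data known. Looser gates, the window of 4000 to 8000 UMIs, and leaving out the GMP and neutrophil gates were added after seeing the data.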

Additional observations from a re-analysis of the deposited data

Results flagged for a closer look

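Cdkn1a, the p21 gene, had a log2 ratio (cKO over WT) of -0.67 (-1.24 to -0.04) in HSC-gated cells. It lay on the other side of 0 over all kept cells, at 0.33 (0.28 to 0.39), in S cells, at 0.25 (0.15 to 0.34), and in G2/M cells, at 0.58 (0.47 to 0.68). These results were marked because the interval in one class lies wholly below 0 and that in the other wholly above. The difference between the classes was not tested, since each genotype has 1 library. The HSC-gated value rests on 34 WT and 89 cKO UMIs. In larger HSC pools the ratio was -0.14 at 2 markers and -0.16 (-0.41 to 0.11) with the looser gate, with intervals that span 0. With the gate set on all UMIs it was 0.60. Low-cycle cells gave 0.10, also with an interval that spans 0. Median depth was 2896 UMIs in WT and 6598.5 UMIs in cKO HSC-gated cells, and at 4000 to 8000 UMIs the ratio over all kept cells was -0.68. The part of depth in the difference was not tested.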

How the results depend on the processing

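No paired analysis was possible because each genotype has 1 library, and for the same reason no library could be left out. Scaling by TMM, by median of ratios or without mitochondrial and ribosomal protein genes shifted the median log2 ratio of all genes by 0.098, 0.10 and 0.097 over all kept cells and by 0.14, 0.14 and 0.12 in HSC-gated cells. The count of 5 higher and 0 lower members over all kept cells stayed within 1.5 times under each alternative run, with 4 higher at a minimum of 10 CPM, at 4000 to 8000 UMIs and without the 1% of cells highest for each gene, and 6 at a minimum of 1 CPM. Restricting to 4000 to 8000 UMIs turned Cdkn1a to -0.68 and Trp53inp1 to 0.37, moved the median over the members from 1.19 to 0.98, and left 2 other pathway genes higher in place of 4. Pmaip1 moved from -0.59 to between -1.87 (4000 to 8000 UMIs) and -0.06 (WT mix of gates), and Eda2r from 4.14 to 2.29 in low-cycle cells. Scaling each cell before averaging gave a median of 1.06 and a Cdkn1a ratio of 0.06. In low-cycle cells 5 other pathway genes were lower in place of 3. In HSC-gated cells, the ratio of Cdkn1a was 0.60 with the gate set on all UMIs, which took 382 WT and 2566 cKO cells. At 4 markers Cdkn1a was -1.16 in place of -0.67, Bax 1.66 in place of 0.88 and Ccng1 0.12 in place of 0.86. The count of members higher by 2-fold in HSC-gated cells, 2, was 4 at 2 markers and with looser gates, and 1 with each cell scaled or a minimum of 10 CPM. Members lower were 1 at 2 markers and 1 at 4 markers, in place of 0. Other pathway genes higher in HSC-gated cells were 1 at 4 markers in place of 3. Those lower, 5 in the count as described, were 3 at 2 markers, with the gate on all UMIs, and with each of the 3 other scalings, and 9 at 4 markers. The gap in members detected per cell, 0.323, was 0.189 at 1000 UMIs, 0.437 at 3000 UMIs and 1.42 without thinning, which follows from the depth counted. Ratios with 0 UMIs in a library (Zmat3, Pmaip1 and Eda2r in HSC-gated cells, and Zmat3 and Eda2r without the 1% of cells highest for the gene) are not given as values, but such genes enter the counts in HSC-gated cells through 0.5 prior counts (Zmat3 among the members, Pidd1 among the other genes).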
